A study of Mus musculus with 8 samples.

Results

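The transcripts described here are the insulin-like growth factor (IGF) family: the ligands Igf1 and Igf2, the receptors Igf1r and Igf2r, and the binding proteins Igfbp2 to Igfbp7. The members are defined by name and make 10 of the 31053 genes listed in the count matrices. IGF1 and IGF2 are secreted growth factors that signal through the receptor tyrosine kinase IGF1R. IGF2R binds IGF2 and carries it to lysosomes, so it removes the ligand rather than passing on its signal. The binding proteins hold IGFs outside the cell, and some release them again after cleavage by proteases such as PAPP-A. Bone cells make most of these proteins themselves, and IGF1R signalling is known to be needed for osteoblast (OB) growth and mineralization.

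Cells were released with collagenase from parietal bones of newborn (P4-5) pups and profiled by droplet single-cell RNA sequencing, in which each captured transcript is counted once through its unique molecular identifier (UMI). Of the 8 libraries, 4 were wild type (WT) and 4 heterozygous (Het) for G610C, a missense mutation in Col1a2, which encodes a chain of type I procollagen. All animals came from the strain B6.129(FVB)-Col1a2tm1Mcbr/J on a C57BL/6J background, and each library held cells of several pups of 1 genotype, so pups cannot be told apart within it. WT libraries S1 and S2 and Het libraries S3 and S4 were made with kit version 3, and WT libraries S5 and S6 and Het libraries S7 and S8 with kit version 3.1, so genotype was compared within both kit versions.

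The libraries held from 30480239 to 85162035 UMIs, and 46420 cells (25697 WT, 20723 Het) passed the filters of at least 500 genes and under 10% mitochondrial UMIs. A cell counted as an OB when it held 10 or more Col1a1 UMIs together with 2 or more UMIs for 2 or more of the markers Runx2, Sp7 and Ibsp, which gave 2671 OBs. They were split by the share of Col1a1 in the UMIs of the cell into 379 early (eOBs, under 0.75%), 1217 differentiating (dOBs, 0.75% to 3.5%) and 1075 mature OBs (mOBs, over 3.5%). Markers outside the selection rule followed this order: Ifitm5, a membrane protein of mineralizing OBs, had a median of 11.6 UMIs per 1000000 in eOBs, 116 in dOBs, 607 in mOBs and 4.61 in all other cells. The other 43749 cells included endothelial-like, mural-like (smooth muscle and pericyte markers), fibroblast-like, chondrocyte-like, haematopoietic-like and erythroid-like cells, each named from its own markers. The suspensions differed in makeup, and haematopoietic-like cells alone ran from 2.68% to 50.8% of a library. Pairs of libraries shared at most 61 cell barcodes, or at most 0.663% of the smaller library. Levels below are UMIs of a gene per 1000000 UMIs of the cells named, written CPM, and values in brackets or lists follow the order WT S1, S2, S5, S6 and Het S3, S4, S7, S8.

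The first question was how the family changes as OBs mature. Of the 10 members, 7 differed between mOBs and dOBs, 6 lower and 1 higher in mOBs, where 30.8% of all 11187 genes tested differed, 16.1% lower and 14.8% higher (edgeR quasi-likelihood test with the library as a block, Benjamini-Hochberg adjusted p under 0.05 over all genes tested). Between mOBs and eOBs 5 members differed, 4 lower and 1 higher, where 28.5% of 11461 genes did, 14.0% lower and 14.5% higher. The median fitted log2 change of the members was -1.13 against dOBs and -0.62 against eOBs, and over all genes tested it was -0.03 in both comparisons. Igf1, Igfbp3, Igfbp4 and Igfbp7 fell in both comparisons and Igfbp6 rose in both, whereas both receptors and Igfbp5 were called in neither. Stage was set by Col1a1, so these are differences between cells grouped by collagen output.

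**Figure D1:**
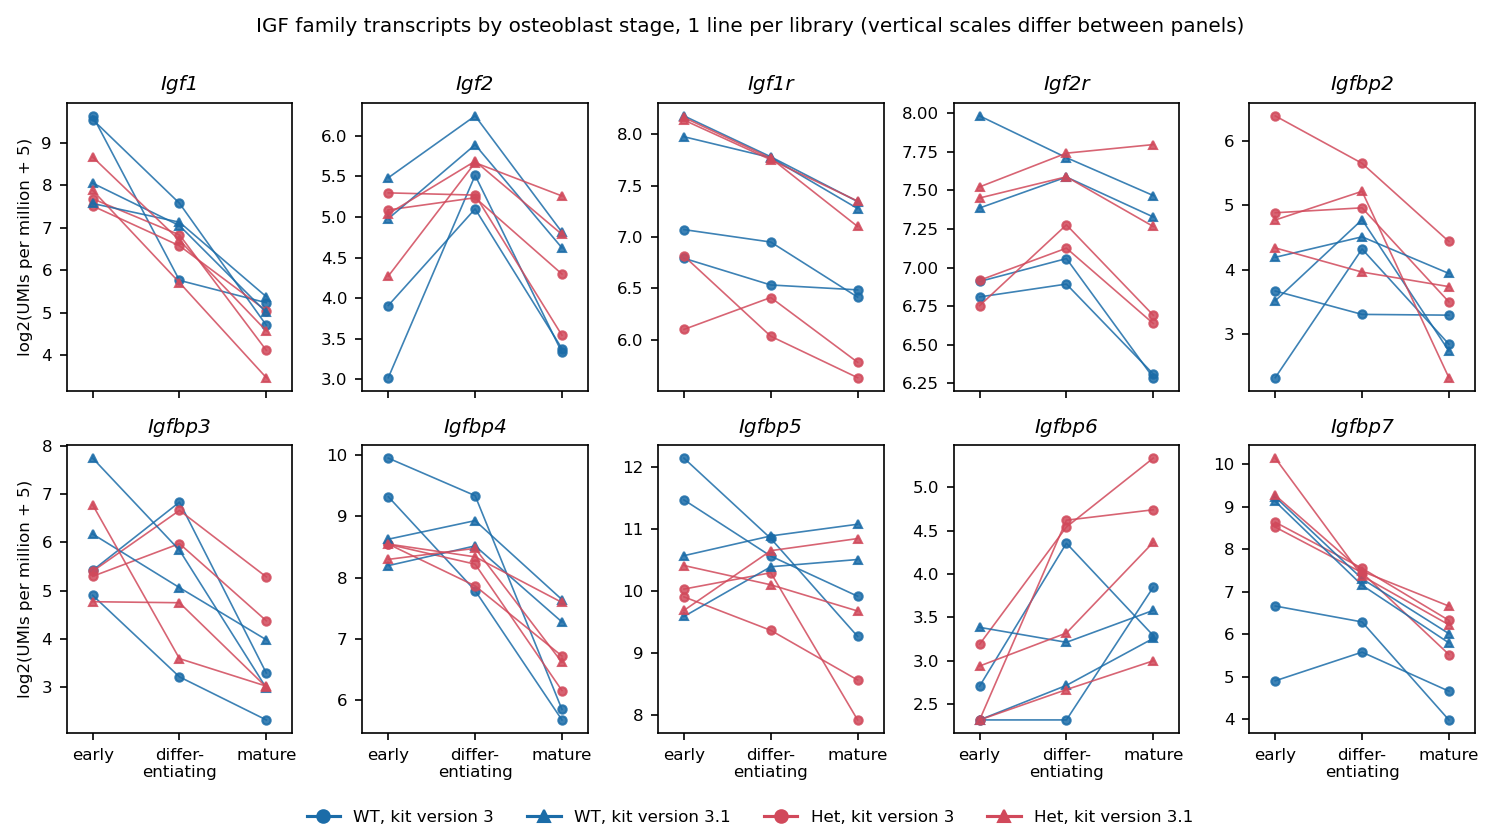
Level of each IGF family transcript, as log2(CPM + 5), in early, differentiating and mature OBs, with 1 line per library, colour for genotype and symbol for kit version. The lines of Igf1, Igfbp3, Igfbp4 and Igfbp7 end lower in mature than in early OBs in 8 of 8 libraries, and the lines of Igfbp6 end higher in 8 of 8.

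Because the mRNAs of Igfbp3, Igfbp4 and Igfbp7 fell together while that of Igfbp6 rose, the 250 bases before the RefSeq start of these 4 genes are shown as context for the stage comparison. All are given 5′ to 3′ on the strand of the gene in GRCm38.p6. Igfbp3 lies on the minus strand at chr11:7213924-7214173, Igfbp4 on the plus strand at chr11:99040994-99041243, Igfbp7 on the minus strand at chr5:77408046-77408295 and Igfbp6 on the plus strand at chr15:102143936-102144185. Capitals mark matches on either strand to any of the motifs searched, which do not overlap in these windows. The core bound by RUNX factors was searched as TGTGGT. The TATA box was searched as TATAAA, to which the general transcription machinery binds. The GC box of SP factors was searched as GGGCGG, and the site of the AP-1 factors as TGANTCA.
Igfbp3: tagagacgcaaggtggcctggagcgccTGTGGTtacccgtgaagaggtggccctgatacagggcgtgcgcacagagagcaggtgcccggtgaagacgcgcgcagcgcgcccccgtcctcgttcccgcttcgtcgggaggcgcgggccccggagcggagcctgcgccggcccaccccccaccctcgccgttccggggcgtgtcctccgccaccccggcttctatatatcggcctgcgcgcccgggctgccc
Igfbp4: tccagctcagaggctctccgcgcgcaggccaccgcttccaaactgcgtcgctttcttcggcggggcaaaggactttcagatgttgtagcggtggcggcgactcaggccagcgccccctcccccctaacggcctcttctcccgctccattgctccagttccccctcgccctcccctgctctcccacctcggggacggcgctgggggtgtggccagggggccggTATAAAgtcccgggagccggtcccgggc
Igfbp7: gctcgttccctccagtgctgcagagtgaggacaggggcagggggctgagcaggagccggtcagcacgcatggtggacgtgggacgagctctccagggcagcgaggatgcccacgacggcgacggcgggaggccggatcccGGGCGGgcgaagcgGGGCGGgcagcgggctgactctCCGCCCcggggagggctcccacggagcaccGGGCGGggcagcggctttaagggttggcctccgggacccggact
Igfbp6: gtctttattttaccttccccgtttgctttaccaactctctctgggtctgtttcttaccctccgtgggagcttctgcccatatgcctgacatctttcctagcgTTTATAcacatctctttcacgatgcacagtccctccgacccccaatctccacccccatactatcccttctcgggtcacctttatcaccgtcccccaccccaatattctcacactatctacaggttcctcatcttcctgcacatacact
Igfbp3 held 1 RUNX core, a sequence found in 14.0% of the 32851 promoter windows of the same length. Igfbp4 held 1 TATA box, with its first base 28 bases before the start, and Igfbp6 held 1 TATA box match on the other strand, 148 bases before it; 12.4% of windows hold one. Igfbp7 held 4 GC boxes, which 32.7% of windows have at least once. None of these 4 windows held the AP-1 site (6.75% of windows) or the element TGATGNAAT bound by ATF4 (0.816% of windows), and no motif was found in all 3 genes that fell. The window of Igf1 lies wholly within annotated exon and is not shown.

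Igf1, the ligand that also circulates as the main effector of growth hormone, lies on chr10:87858265-87937042 (GRCm38, GENCODE release M21). It had 748, 794, 186 and 261 CPM in WT eOBs and 178, 201, 402 and 231 in Het eOBs. In dOBs it had 186, 49.2, 135 and 128 in WT and 90.4, 109, 99.3 and 47.2 in Het. In mOBs it had 20.997, 32.6, 36.4 and 27.1 in WT and 27.97, 12.3, 18.7 and 6.02 in Het. The level stepped down at each stage in all 8 libraries, and the 8 mOB values did not overlap those of eOBs or dOBs. The fitted change was -3.37 ± 0.29 (log2, SE) from eOBs to mOBs (edgeR adjusted p = 2.63e-06) and -1.87 ± 0.20 from dOBs to mOBs (edgeR adjusted p = 1.60e-05). After each cell was thinned to 2000 UMIs, with 90 of the 2671 OBs left out as shallower, an Igf1 UMI was seen in 33.0% of eOBs, 13.9% of dOBs and 3.57% of mOBs (50.9%, 34.8% and 12.5% without thinning). In erythroid-like cells, which should lack it, the share was 1.14% (3.15% without thinning), but 1472 of those 2130 cells came from WT S2 and the thinned share of a library ran from 0% to 13.6%. It lay above that of mOBs in WT S2 (0.892% against 0%), Het S3 (13.6% of 22 cells against 5.06%) and Het S4 (2.25% against 1.56%), and Igf1 in erythroid-like cells of Het S3 and S4 stood at 153 and 33.3 CPM. By thinned share, mOBs of these 3 libraries were therefore not above erythroid-like cells. By level, mOBs of WT S2 were above them, at 32.6 CPM against 7.48, while those of Het S3 and S4 were below, at 27.97 and 12.3.

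Igf2, the ligand that dominates fetal growth, lies on chr7:142650766-142666816 on the minus strand. In dOBs it had 29.3, 40.6, 54.2 and 70.8 CPM in WT and 32.7, 33.6, 45.8 and 46.5 in Het, against 5.40, 5.06, 19.6 and 23.1 in WT mOBs and 14.7, 6.65, 33.3 and 22.6 in Het mOBs. Each of the 8 libraries was lower in mOBs than in dOBs, although the ranges over libraries overlapped, and the fitted change was -1.15 ± 0.17 (edgeR adjusted p = 0.000276). Igf2 did not step down from eOBs, where 6 of 8 libraries were higher than in mOBs and levels ran from 3.11 to 39.7 with at most 37 UMIs in a library. A second gene model on the same strand, Gm49394, covers 62.8% of the exonic bases of Igf2 and 99.4% of the exonic bases within its last 500. Reads that fall in 2 genes are by default not counted and Gm49394 had 3 UMIs in all kept cells, so Igf2 levels are minimum values and were compared only between cells, not with other genes.

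**Figure D2:**
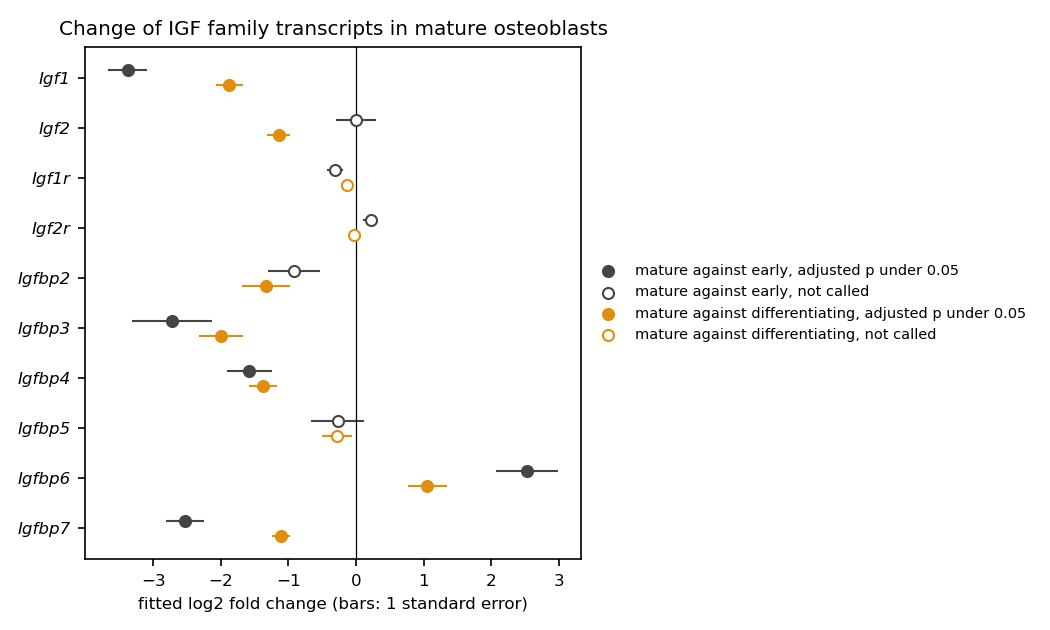
Fitted log2 fold change of each member in mature against early (dark) and against differentiating (orange) OBs, with bars of 1 standard error and filled points for adjusted p under 0.05. Igf1 (-3.37 and -1.87), Igfbp3, Igfbp4 and Igfbp7 lie left of 0 in both comparisons, Igfbp6 lies right of 0, and Igf1r, Igf2r and Igfbp5 are open points in both.

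Neither receptor was called in either stage comparison. Igf1r (chr7:67952827-68233668) had 80.4, 84.6, 150 and 158 CPM in WT mOBs and 44.6, 50.1, 158 and 132 in Het mOBs, and its dOB levels ran from 60.6 to 215. Igf2r (chr17:12682406-12769664, minus strand) had 74.4, 73.1, 156 and 172 in WT mOBs and 94.6, 98.4, 217 and 149 in Het mOBs, and 114 to 209 in dOBs. Both receptors had higher values in the libraries of kit version 3.1 than in those of version 3. The fitted changes from eOBs to mOBs were -0.31 ± 0.12 for Igf1r (edgeR adjusted p = 0.0750) and 0.22 ± 0.11 for Igf2r (edgeR adjusted p = 0.160). In CPM Igf1r was lower in mOBs than in eOBs in 8 of 8 libraries, but the median gene was also lower there by this measure, with a log2 difference of -0.35 that the scaling of the fit takes out. With OBs that carried markers of another class left out, both were called, in opposite directions (Igf1r -0.40, edgeR adjusted p = 0.0495, and Igf2r 0.47, edgeR adjusted p = 0.0391).

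Among the binding proteins, Igfbp4, an inhibitory binding protein that PAPP-A cleaves, had 980, 632, 288 and 390 CPM in WT eOBs and 368, 367, 368 and 309 in Het eOBs. In mOBs it had 52.8, 46.3, 150 and 195 in WT and 101, 66.5, 188 and 93.3 in Het, so every mOB library was below every eOB library. The gene (chr11:99041244-99054392) fell by 1.58 ± 0.33 on the log2 scale from eOBs (edgeR adjusted p = 0.00277) and by 1.37 ± 0.21 from dOBs (edgeR adjusted p = 0.000276).

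Igfbp7 (chr5:77349240-77408041, minus strand), which binds IGFs weakly and is abundant in vessels, had 96.4, 24.9, 596 and 554 CPM in WT eOBs and 393, 363, 1128 and 613 in Het eOBs. In mOBs it had 10.8, 20.3, 59.6 and 50.6 in WT and 75.3, 41.0, 69.7 and 96.3 in Het. It was lower in mOBs in 8 of 8 libraries, although the ranges over libraries overlapped, by 2.53 ± 0.28 in the fit against eOBs (log2, edgeR adjusted p = 2.18e-05) and by 1.11 ± 0.13 against dOBs (edgeR adjusted p = 3.77e-05). Igfbp3 (chr11:7206086-7213923, minus strand), the main carrier of IGFs in serum, had 37.8, 24.9, 67.1 and 209 in WT eOBs and 37.3, 34.3, 105 and 22.3 in Het eOBs. In mOBs it had 4.80, 0, 10.8 and 2.91 in WT and 34.0, 15.8, 3.12 and 3.01 in Het, so the ranges overlapped through Het S3 although each library fell. The fitted changes of Igfbp3 were -2.72 ± 0.59 from eOBs (edgeR adjusted p = 0.00357) and -1.996 ± 0.32 from dOBs (edgeR adjusted p = 0.000398).

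The early cells held markers of other classes, so these falls were also fitted without OBs holding markers of another class. The 10 endothelial markers summed to between 28.03 and 1975 CPM in eOBs but to between 3.01 and 38.6 in mOBs, and the 11 chondrocyte markers to between 137 and 17423 in eOBs and between 31.2 and 1760 in mOBs. The chondrocyte list includes Sox9, which the study also used to stage OBs. Between 9.02% and 17.3% of the OBs of a library met the rule for markers of another class in kit version 3, and between 41.8% and 59.5% in version 3.1. Leaving them out thus took a larger share of OBs from version 3.1. Without those cells the change from eOBs to mOBs was -4.18 for Igf1, -1.90 for Igfbp4 and -1.18 for Igfbp7 (largest edgeR adjusted p = 9.96e-05), while Igfbp3 changed by -0.79 and was not called (edgeR adjusted p = 0.264). The fall of Igfbp3 from dOBs remained at -1.97 (edgeR adjusted p = 0.000909).

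Igfbp6, which prefers IGF2 over IGF1, was the only member called higher in mOBs with all OBs included, and was scarce at every stage. The gene (chr15:102144362-102149511) had 4.80, 9.41, 6.97 and 4.58 CPM in WT mOBs and 35.3, 21.7, 15.6 and 3.01 in Het mOBs. In eOBs there were 13 UMIs in all, with 0 in 4 of the 8 libraries and at most 7 in 1. The fitted rise was 2.53 ± 0.46 from eOBs (log2, edgeR adjusted p = 0.000973) and 1.05 ± 0.29 from dOBs (edgeR adjusted p = 0.0148), where 7 of 8 libraries rose and WT S1 fell. The call against dOBs was lost without Het S3 (0.997, edgeR adjusted p = 0.050002) and with a looser OB selection of 1 UMI per marker (0.15, edgeR adjusted p = 0.756).

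Igfbp2 (chr1:72824503-72852474) fell from dOBs to mOBs by 1.33 ± 0.36 on the log2 scale (edgeR adjusted p = 0.0117), from a range of 4.88 to 45.2 CPM to a range of 0 to 16.7. Igfbp5 (chr1:72857932-72874884, minus strand), a binding protein of the bone matrix that can enhance IGF action, kept a high level at every stage. It had 4529, 2838, 767 and 1519 CPM in WT eOBs and 956, 1043, 821 and 1359 in Het eOBs, against 613, 963, 1455 and 2160 in WT mOBs and 374, 238, 1839 and 815 in Het mOBs. The libraries did not move one way: 3 were higher and 5 lower in mOBs, all 4 libraries of kit version 3 being lower. The fitted change was -0.27 ± 0.39 (edgeR adjusted p = 0.664), and it was -0.85 without OBs holding markers of another class (edgeR adjusted p = 0.00608).

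Against all other cells of the bone, 5 of the 10 members differed in OBs, 1 higher and 4 lower, where 37.5% of 16420 genes did, 13.8% higher and 23.8% lower. The median member was at -0.46 and the median of all genes tested at -0.08. Igfbp5 was the member that was higher, at 2184, 1358, 1322 and 1976 CPM in WT OBs and 530.1, 541, 1539 and 1058 in Het OBs. In all other cells it had 977, 181, 277 and 227 in WT and 1399, 1670, 117 and 99.6 in Het, so it was higher in OBs in 6 of 8 libraries and lower in Het S3 and S4. The fitted difference was 1.94 ± 0.65 (edgeR adjusted p = 0.0390), a call that was lost when any of the libraries S1, S2, S5, S6, S7 or S8 was left out (edgeR adjusted p from 0.0561 to 0.101). Igfbp7 was lower in OBs in 8 of 8 libraries, by 2.39 ± 0.25 (log2, edgeR adjusted p = 5.34e-05). Igfbp3 was lower by 1.99 ± 0.38, Igfbp2 by 1.27 ± 0.25 and Igf2 by 0.73 ± 0.19 (largest edgeR adjusted p = 0.0104), and these 3 calls were lost with the looser OB selection.

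**Figure D3:**
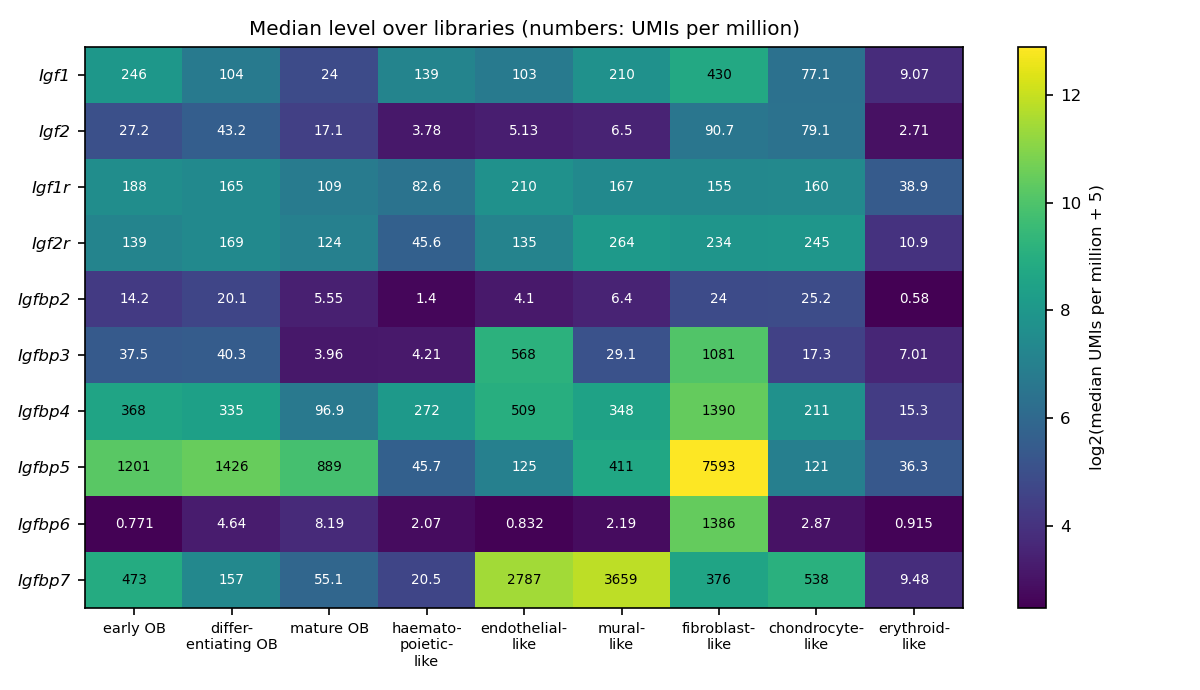
Median level over libraries of each member (rows) in the 3 OB stages and the 6 other classes (columns), coloured by log2(median CPM + 5) and labelled with the median in CPM. Igfbp7 peaks in mural-like (3659) and endothelial-like cells (2787), while Igfbp3, Igfbp4, Igfbp5 and Igfbp6 peak in fibroblast-like cells.

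Among the 9 populations the members peaked in different cells. Fibroblast-like cells, of which only the 4 libraries of kit version 3 held at least 10, had the highest medians of Igfbp3 (1081 CPM), Igfbp4 (1390), Igfbp5 (7593) and Igfbp6 (1386), and their lowest library exceeded the highest library of the next class for all 4. They were also highest when all classes were read in kit version 3 alone. For Igfbp6 the next class was mOBs, with a median of 8.19. These 1258 cells held 1.599% of all UMIs but 73.7% of the Igfbp6 UMIs and 21.7% of the Igfbp5 UMIs. Igfbp7 was highest in mural-like cells (3080 to 4374) and endothelial-like cells (2182 to 4144), whose ranges overlapped, and both lay above every other class. Igfbp3 also marked endothelial-like cells, at 507 to 903. Igf1 had its highest medians in fibroblast-like cells (430), eOBs (246) and mural-like cells (210), with overlapping ranges. Unclassed cells had a median of 443 and held 43.8% of its UMIs, against 11.7% of all UMIs. In kit version 3 alone the Igf1 median of eOBs (474) was above that of fibroblast-like cells. Igf2 was highest in fibroblast-like (median 90.7) and chondrocyte-like cells (79.1), and chondrocyte-like cells held 73.1% of its UMIs and 52.0% of all UMIs. By medians over both kit versions the receptors varied least. Median Igf1r ran from 82.6 to 210 and median Igf2r from 45.6 to 264 over all classes but erythroid-like cells. Neighbours in that order overlapped except for Igf2r between mOBs and haematopoietic-like cells. In kit version 3 alone Igf1r in fibroblast-like cells (141 to 193) lay above every other class (at most 131). There Igf2r in chondrocyte-like, fibroblast-like and mural-like cells (200 to 298) lay above the rest (at most 150).

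The genes most like each member over the 32 sums of eOBs, dOBs, mOBs and other cells, by Pearson r of log2(CPM + 5) centred within each library, are given as a description, since the sums share libraries and composition. For Igf1 they were Plce1 (r = 0.953), Rap2a and Ech1, and for Igfbp4 Gas6 (0.956), Egfr and Rsu1. Igfbp7 ran with Cotl1 (0.953), Col18a1 and Snx3, and Igfbp3 with Lrrc8c (0.931), Col4a2 and Cd93. Igfbp5 ran with Dpysl3 (0.912), Pard3b and Cped1, Igfbp2 with Cxcl14 (0.867), Fbln2 and Col8a1, and Igfbp6 with Pi16 (0.809), Mfap5 and Pde4d, of which Pi16 and Mfap5 are fibroblast markers that named a class here. Igf2 ran with Il11ra1 (0.912), Col8a2 and Lrig3, Igf1r with Rgl1 (0.916), Nfib and Tshz2, and Igf2r with Sec61a2 (0.899), Slc35f5 and Grb10. Within the family the closest pair was Igf1 and Igfbp4 (r = 0.878).

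The second question was whether the Het mutation altered the family. In mOBs 0 of the 10 members passed the edgeR test, where 0.518% of 10033 genes did. There 5 members had an unadjusted p under 0.05 and DESeq2 called 1. Counts at an unadjusted p, here and below, have no share of all genes beside them and are not read as results. Genes called by DESeq2 in mOBs and in all other cells are counted in the closing section. The median member was at 0.37 and the median gene at 0.01 on the log2 scale. The 5 were Igfbp6 (1.43 ± 0.36, edgeR adjusted p = 0.120), Igfbp5 (-0.96 ± 0.28, 0.183), Igfbp7 (0.98 ± 0.29, 0.184), Igf1r (-0.45 ± 0.14, 0.241) and Igf1 (-0.86 ± 0.30, 0.279). On simulated counts with the same library totals the same test found 56% of genes changed 2-fold and 97% of genes changed 3-fold. The simulation gave all genes 1 spread and held no kit difference, and only well-counted genes were changed. These shares therefore do not give the power for scarce or variable members, such as Igfbp2 and Igfbp3 with 124 and 174 UMIs in all mOBs.

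**Figure D4:**
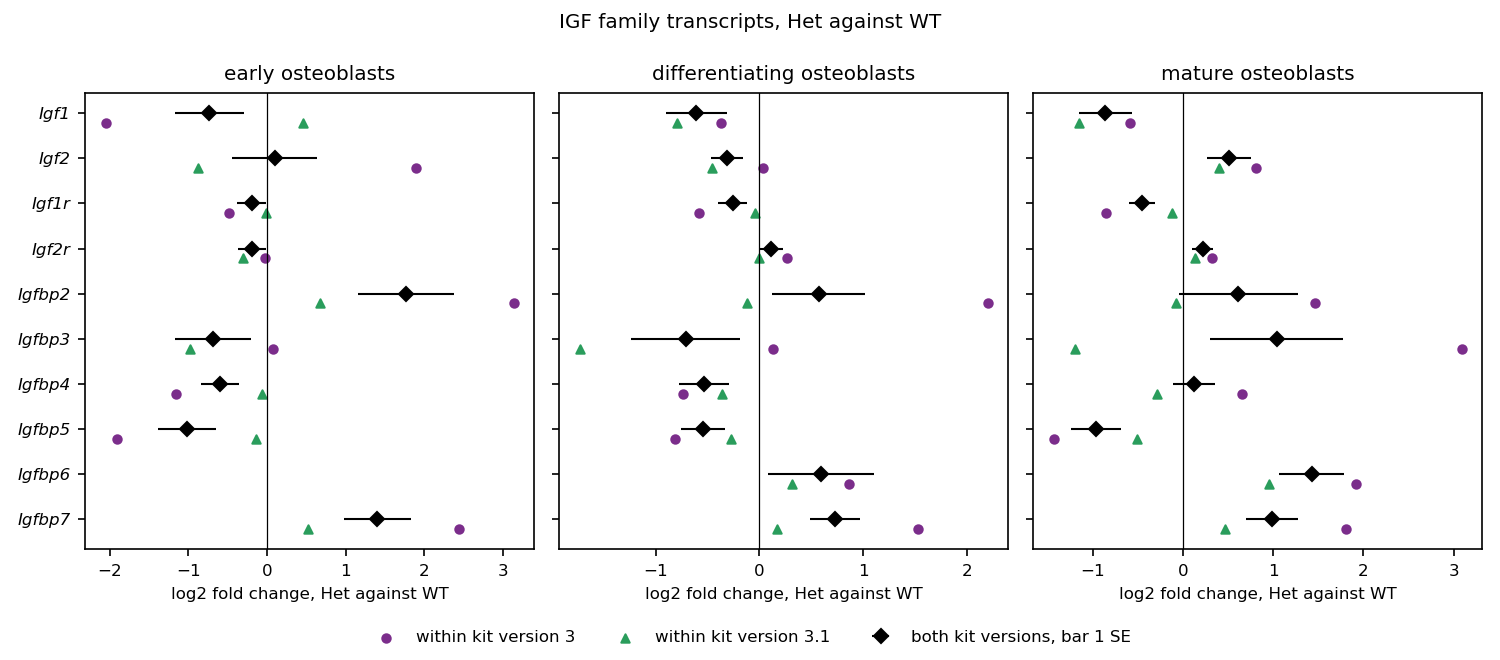
Log2 fold change of each member in Het against WT in early, differentiating and mature OBs, as fitted over both kit versions (diamonds, bars of 1 SE) and within each kit version (circles and triangles). Igfbp7 lies right of 0 and Igfbp5 left of 0 at all 3 stages and in both kit versions, and no diamond passed the test. Igfbp6 was too low for testing in early OBs.

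In mOBs the 4 Het libraries overlapped the 4 WT libraries for all 10 members, where 2.57% of the genes tested did not overlap. Igfbp7 averaged 35.3 ± 23.5 CPM in WT (SD, n = 4) and 70.5 ± 22.8 in Het (SD, n = 4). Both Het libraries were above both WT libraries within each kit version, with a log2 change of 1.81 in version 3 and 0.47 in version 3.1. It was the only one of the 10 members separated in the same direction within both versions, as were 10.6% of the genes tested. The same order held in dOBs, where the 4 Het libraries (183, 170, 161 and 174) were all above the 4 WT libraries (73.2, 42.8, 153 and 137), and in eOBs within each kit version, where 2 of 9 members and 5.46% of genes were separated in the same direction within both. Igfbp7 was the 1 member of 10 without overlap in dOBs, where 1.55% of genes had none. Within both kit versions 2 members, Igfbp7 and Igf1r, were separated in dOBs, as were 8.83% of genes, and Igf1r was lower in Het by small margins (119, 87.7, 214 and 215 in WT, 60.6, 80.2, 210 and 213 in Het). The fitted changes of Igfbp7 were 1.40 ± 0.43 in eOBs and 0.73 ± 0.24 in dOBs, neither called (edgeR adjusted p = 0.9998 and 0.585). Igfbp7 in mOBs was called by DESeq2 (1.13, DESeq2 adjusted p = 0.0396), with stage limits of 0.5% and 5% (1.29, edgeR adjusted p = 0.0360) and without Het S7 (1.30, edgeR adjusted p = 0.0418). In haematopoietic-like cells, which make little of it, Igfbp7 was 21.3, 19.7, 22.5 and 12.7 in WT and 47.6, 68.9, 11.5 and 12.5 in Het, so it was also higher in Het with kit version 3 but not with 3.1. In erythroid-like cells of kit version 3 it ran from 6.27 to 118.5 CPM, with both Het libraries above both WT libraries. Markers of mural cells, the class richest in Igfbp7, moved the same way. The 9 mural markers summed to 34.8, 32.6, 150 and 120 CPM in WT mOBs and 135, 63.7, 236 and 354 in Het mOBs, higher in Het within each kit version. The list includes the contractile genes Acta2, Myh11 and Cnn1, and the sum of Het S8 came from 4 of the 9 markers. In dOBs they summed to 501, 363, 371 and 454 in WT and 587, 508, 689 and 577 in Het, with no overlap. In eOBs they were higher in both Het libraries of kit version 3.1 (2402 and 1022 against 583 and 756) and overlapped in version 3. The 10 endothelial markers in mOBs were higher in both Het libraries of kit version 3 (38.6 and 28.7 against 14.4 and 13.0) and overlapped in version 3.1 (31.2 and 3.01 against 21.6 and 11.4). The 11 chondrocyte markers in mOBs were higher in both Het libraries of version 3.1 (976 and 1760 against 734 and 794) and overlapped in version 3. In dOBs they were higher in version 3 (733 and 365 against 163 and 107) and overlapped in version 3.1. In eOBs they were higher in version 3 (2140 and 1421 against 729 and 137) and lower in version 3.1 (7160 and 7142 against 17423 and 11488). Without OBs holding markers of another class the change of Igfbp7 was 0.87 in mOBs and 0.64 in dOBs (edgeR adjusted p = 0.259 and 0.677), and after thinning to 2000 UMIs it was 0.32 and 0.24 (edgeR adjusted p = 0.920 and 0.906). Whether these marker RNAs came from other cells or were made by the OBs was not tested, and their part in the Igfbp7 values was not otherwise tested.

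Igfbp5 averaged 1298 ± 671 CPM in WT mOBs and 817 ± 725 in Het mOBs (SD, n = 4 each), and the groups overlapped. Within kit version 3 both Het libraries were below both WT libraries, with a log2 change of -1.43, a separation within version 3 that 9 of the 10 members and 47% of the genes tested had. Within version 3.1 the change was -0.51 with overlap. The fitted change was -1.02 ± 0.37 in eOBs and -0.54 ± 0.21 in dOBs, again not called (edgeR adjusted p = 0.9998 and 0.629). Without Het S7 the change in mOBs was -1.32 and passed (edgeR adjusted p = 0.0104).

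Igfbp6 averaged 6.44 ± 2.25 CPM in WT mOBs and 18.9 ± 13.4 in Het mOBs (SD, n = 4 each). Het S3, S4 and S7 lay above all WT libraries, and Het S8, with 2 UMIs, lay below them. Without Het S8 the change was 1.62 and passed (edgeR adjusted p = 0.0219). The 8 fibroblast markers, whose cells are rich in Igfbp6, summed to between 33.3 and 55.6 CPM in WT mOBs and between 32.9 and 111 in Het mOBs, and their part in the Igfbp6 values was not tested. Without OBs holding markers of another class the change of Igfbp6 was 1.30 (edgeR adjusted p = 0.230).

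Igf1 averaged 29.3 ± 6.72 CPM in WT mOBs and 16.2 ± 9.38 in Het mOBs (SD, n = 4 each), with overlap through Het S3 (27.97). It was lower in Het within both kit versions (-0.58 and -1.15), but turned to 0.20 with the looser OB selection (edgeR adjusted p = 0.901). Igf1r was lower in both Het libraries than in both WT libraries of kit version 3 (-0.85), as 47% of genes were separated there, and overlapped in version 3.1 (-0.12). Haematopoietic markers in mOBs were also lower in Het within each kit version, at 698, 504, 20.5 and 11.7 CPM in WT and 34.6, 184, 10.4 and 1.504 in Het. Without OBs holding markers of another class the changes were -0.27 for Igf1 and -0.40 for Igf1r (edgeR adjusted p = 0.886 and 0.390). The remaining members of the mOB comparison were Igf2 (0.51 ± 0.24), Igf2r (0.22 ± 0.12), Igfbp2 (0.62 ± 0.66), Igfbp3 (1.04 ± 0.74) and Igfbp4 (0.12 ± 0.23), with edgeR adjusted p from 0.464 to 0.908. Igfbp3 went opposite ways in the kit versions, at 3.09 in version 3 and -1.19 in version 3.1.

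In dOBs 0 of 10 members were called by edgeR, where 0.00981% of genes were, with 3 at an unadjusted p under 0.05 and 0 by DESeq2. The median member was at -0.28 and the median gene at -0.00. Igfbp2 was the member whose Het and WT libraries did not overlap in eOBs, with 7.71, 0, 13.3 and 6.44 CPM in WT and 78.6, 24.5, 15.2 and 22.3 in Het (1.76 ± 0.61). It was 1 of 9 members tested there, and 1.37% of genes had no overlap. In eOBs 9 members could be tested and 0 were called by edgeR, where 0% of genes were, with 4 at an unadjusted p under 0.05 and 0 by DESeq2. There the median member was at -0.20 and the median gene at -0.01. Over all other cells together 0 of 10 were called by edgeR, where 0% of genes were, with 3 at an unadjusted p under 0.05. DESeq2 called 3 (Igfbp7, Igf2 and Igf2r, all higher in Het) and also called many other genes in these cells (closing section). The makeup of these cells moved with genotype within both kit versions: haematopoietic-like and erythroid-like cells together were 58.6% and 71.5% of WT S1 and S2 but 7.22% and 10.9% of Het S3 and S4, and 4.25% and 7.50% of WT S5 and S6 but 3.6004% and 2.68% of Het S7 and S8. Median levels in those 2 classes were 3.78 and 2.71 CPM for Igf2 and 45.6 and 10.9 for Igf2r. Chondrocyte-like cells moved the other way, at 3.35%, 4.35%, 66.3% and 59.8% of WT and 35.7%, 25.3%, 70.8% and 81.5% of Het libraries. They held 73.1% of the Igf2 UMIs and 68.5% of the Igf2r UMIs, against 52.0% of all UMIs. The part of this makeup in the values was not tested. The median member was at 0.59 and the median gene at 0.03. For a genotype effect unequal in dOBs and mOBs (an interaction term), 0 of 10 members passed by edgeR, where 0% of genes did, with 1 at an unadjusted p under 0.05 (Igfbp3, 1.32 ± 0.58) and 0 by DESeq2. The median member was at 0.15 and the median gene at -0.02.

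In endothelial-like cells 2 of 10 members were called, where 1.37% of 11540 genes were, 0.494% higher and 0.875% lower, and the median member was at -0.11 with the median gene at -0.00. Igf1 had 175, 218, 118 and 120 CPM in WT and 85.7, 87.9, 61.2 and 79.3 in Het. All 4 Het libraries lay below all 4 WT libraries. The fitted change was -1.01 ± 0.12 (edgeR adjusted p = 0.00202), -1.20 within kit version 3 and -0.80 within version 3.1. Igfbp7 had 2182, 2640, 2420 and 2421 in WT and 3626, 4144, 2933 and 3185 in Het, again with no overlap, where 2.18% of genes had none. Its fitted change was 0.50 ± 0.10 (edgeR adjusted p = 0.0343).

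**Figure D5:**
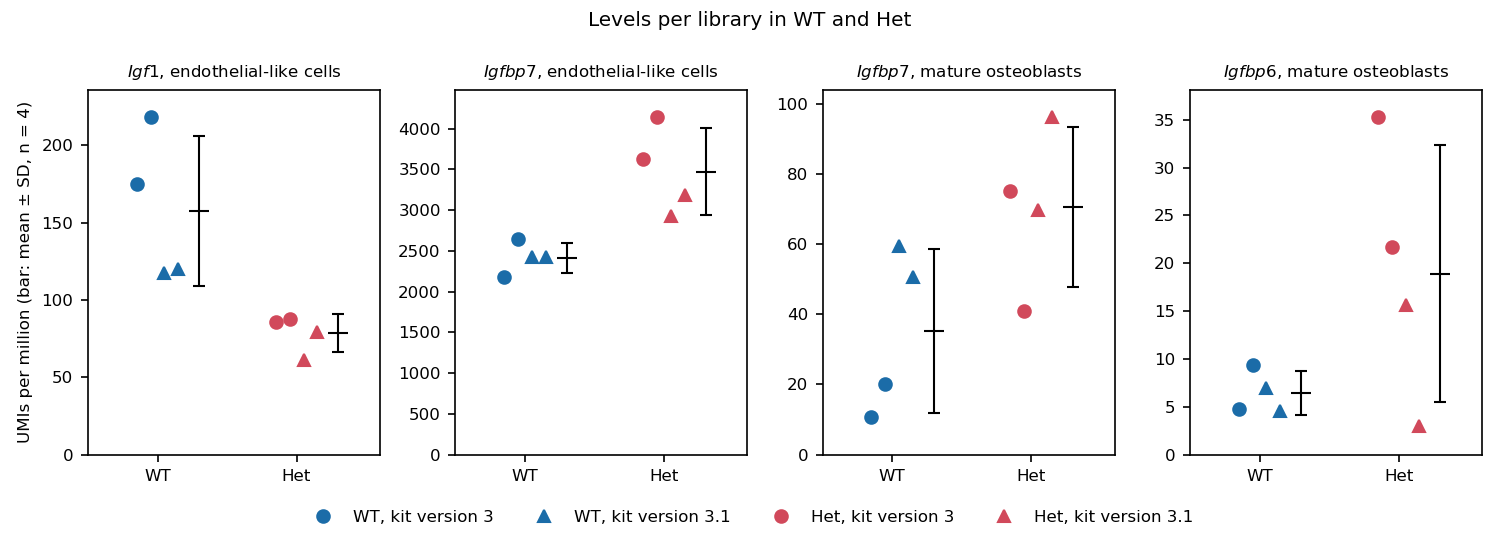
CPM in each WT (blue) and Het (red) library, with circles for kit version 3, triangles for version 3.1 and bars for the mean ± SD of the 4 libraries. In endothelial-like cells every Het library lies below every WT library for Igf1 and above it for Igfbp7, while in mature OBs the groups overlap for Igfbp7 and Igfbp6.

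Leaving out any library kept the Igf1 call in endothelial-like cells, whereas a model without kit version lost it (-1.03, edgeR adjusted p = 0.9998). Igfbp7 was not called there without S1, S2, S3, S4, S6 or S8 (edgeR adjusted p from 0.0601 to 0.123). Haematopoietic markers in these cells were lower in both Het libraries of kit version 3 (44.2 and 101 CPM against 200.2 and 483) and overlapped in version 3.1 (37.2 and 44.2 against 79.8 and 24.3), and Igf1 in haematopoietic-like cells was 58.3, 19.3, 154 and 146 in WT and 216, 209, 132 and 78.9 in Het, so it was higher in Het with kit version 3 and lower with version 3.1. The 11 chondrocyte markers in endothelial-like cells summed to 32.9, 27.4, 467 and 318 CPM in WT and 220, 151, 490 and 599 in Het, so they were higher in both Het libraries within each kit version, as Igfbp7 was. Chondrocyte-like cells themselves had 487 to 739 CPM of Igfbp7, below every endothelial-like library. The 6 erythroid markers were lower in Het within each kit version (51.2 and 130 against 9.82 and 8.79, then 3.63 and 3.93 against 1.01 and 0.575), the 8 fibroblast markers were lower in Het in version 3.1 alone (255 and 209 against 174 and 163), and the mural markers overlapped in both. The part of RNA from these other cells in the endothelial-like values was not tested.

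In erythroid-like cells 5 of 6 members tested were called, all higher in Het, where 4.63% of 5470 genes were called, 3.56% higher, with a median of 3.05 for the members and -0.03 for all genes. Igf1 had 6.72, 7.48, 10.7 and 5.53 CPM in WT against 153 and 33.3 in Het, and Igfbp3 10.3, 3.70, 0 and 2.76 against 62.7 and 41.9. These 2 members passed the low-count filter through the Het libraries alone. The count of members called was thus partly set by the filter and cannot be compared with the share of genes. Igf1, Igfbp3, Igfbp4, Igfbp5 and Igfbp7 rose by 2.93 to 3.13 on the log2 scale (largest edgeR adjusted p = 0.00289). Only Het S3 (22 cells) and S4 (187 cells) entered. Col1a1, which erythroid cells do not make, also stood at 5326 and 1594 CPM in those 2 libraries against 335 to 421 in WT, and its part in the members' values was not tested. In haematopoietic-like (9 members tested), mural-like (8), fibroblast-like (10) and chondrocyte-like cells (10) 0 members were called by edgeR and 0 by DESeq2, where edgeR called 0.143%, 0.0428%, 0.264% and 0.0585% of genes, with 3, 4, 1 and 3 members at an unadjusted p under 0.05. Igfbp2 had the largest of these changes, 2.74 ± 0.70 in mural-like and 1.93 ± 0.49 in fibroblast-like cells, neither called (edgeR adjusted p = 0.416 and 0.166). In mural-like cells it had 4.42, 14.3, 8.05 and 0 CPM in WT and 140, 42.5, 4.76 and 2.42 in Het, so only the Het libraries of kit version 3 were above WT and the groups overlapped in version 3.1. It was called there without WT S5 (3.497, edgeR adjusted p = 0.0397).

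The pathway around the family was followed with 50 further genes. From dOBs to mOBs 9 rose and 8 fell of 45 tested, where 14.8% of all genes rose and 16.1% fell, and from eOBs to mOBs 10 rose and 10 fell of 46, where 14.5% rose and 14.0% fell. Among regulators of ligand availability, Pappa and Pappa2, proteases that free IGFs from binding proteins, fell from eOBs to mOBs by 3.62 ± 0.29 and 3.30 ± 0.48 on the log2 scale. Their inhibitor Stc1 fell by 4.23 ± 0.73, while Stc2, another inhibitor, rose by 4.50 ± 0.43 (edgeR adjusted p at most 0.000897 for these 4). Downstream of the receptors 5 of 19 genes of the PI3K, AKT and mTOR list rose and 1 fell, beside the same 14.5% and 14.0% of all genes, and the median of the list was 0.10. The genes that rose included Eif4ebp1, the translation repressor that mTOR phosphorylates (1.39 ± 0.25, edgeR adjusted p = 0.000907), and Rps6kb1, an mTOR-activated kinase (0.93 ± 0.13), whose call was lost after thinning (0.33, edgeR adjusted p = 0.344). H19, the imprinted neighbour of Igf2, fell by 0.98 ± 0.27 from eOBs and by 1.66 ± 0.21 from dOBs, and Socs3, a feedback inhibitor of cytokine signalling, by 2.74 ± 0.27 from eOBs. Without OBs holding markers of another class the fall of H19 from eOBs was not called (-0.36, edgeR adjusted p = 0.400).

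Between genotypes 1 of the 41 pathway genes tested in mOBs was called, where 0.518% of all genes were. Eif4ebp1 had 121, 125, 71.5 and 77.4 CPM in WT mOBs and 427, 411, 121 and 232 in Het mOBs, so that both Het libraries were above both WT libraries within each kit version. Its fitted change was 1.44 ± 0.20 (edgeR adjusted p = 0.00683), a call lost without WT S1 or WT S2 (edgeR adjusted p = 0.0536 and 0.0648). In dOBs 0 of 42 and in eOBs 0 of 41 were called by edgeR, where 0.00981% and 0% of all genes were, with 3 and 3 at an unadjusted p under 0.05 and 0 and 0 by DESeq2. In endothelial-like cells Socs3 was lower in Het (-0.62 ± 0.12, edgeR adjusted p = 0.0219), and in fibroblast-like cells, with 2 libraries of each genotype, Pappa2 was higher (1.92 ± 0.37, edgeR adjusted p = 0.0370). DESeq2 called neither (DESeq2 adjusted p = 0.0504 for Socs3 and 0.999998 for Pappa2), and Socs3 was not called without S2, S3, S4, S6, S7 or S8 (edgeR adjusted p from 0.0549 to 0.0866).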

How the data were processed

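Single-cell libraries of 4 WT and 4 Het pools were analysed from the filtered matrices of UMI counts per gene and cell that the authors deposited, made with Cell Ranger 5.0.0 (kit version 3) or 6.0.1 (kit version 3.1) on mm10, so kit and software changed together. Cells with at least 500 genes and under 10% mitochondrial UMIs were kept. OBs, their stages and the other classes were rebuilt from markers, because no deposited annotation of cells was used here, and shares may therefore differ from the study's. A class needed at least 3 of its markers with at least 2 UMIs each and a lead of 2 markers over every other class. Doublets were not called, and OBs holding markers of another class were left out in an alternative. The members and all gene lists were chosen with earlier results of these data known. The text names all 10 members, the 3 genes most like each, and pathway genes from the list of 50. A few of the latter were chosen after their values were seen.

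Counts were summed per library and population, libraries with under 10 cells of a population being left out, and fitted with edgeR 4.0.16 (TMM, filterByExpr, quasi-likelihood test, Benjamini-Hochberg over all genes tested, called at an adjusted p under 0.05) in R 4.3.3. Genotype was fitted with kit version, and stage and population with the library as a block. DESeq2 1.42.0 and the other alternatives of the closing section were run one at a time. Log2 values per library used a pseudocount of 5 CPM (UMIs per 1000000). The steps were checked on simulated counts. The libraries are the replicates. Since each pools several pups, p-values measure the spread between pools. Droplet counts are of molecules, intervals are not given for them, and low members are limited by counting error: Igfbp6 had 221 UMIs in all mOBs. Promoter sequences came from RefSeq (GRCm38.p6), where all 10 members matched, and gene positions from GENCODE release M21, where 31011 of 31053 identifiers matched. Libraries with the same number in their titles were checked as pairs, and their deviations from the group means correlated at -0.14 to 0.14, so the numbers were not taken to pair them.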

Additional observations from a re-analysis of the deposited data

Results flagged for a closer look

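Single libraries stood apart from the other 3 of their genotype in 8 of 120 sets of 4 values examined (Dixon's test), where chance marks about 1 in 20. In eOBs these were Igfbp2 in Het S3 (78.6 CPM) and Igfbp4 in Het S8 (309). In all other cells they were Igfbp3 (213), Igfbp5 (977) and Igfbp6 (121), all in WT S1. In endothelial-like cells it was Igfbp2 in Het S3 (16.2), and in haematopoietic-like cells Igf1r in WT S2 (77.3) and Igfbp3 in WT S1 (25.1).

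The Het against WT change differed between kit versions (edgeR test of the difference, adjusted over all genes, version 3.1 minus version 3, log2) for 15 member comparisons. In eOBs Igf1 differed by 2.50 (adjusted p = 0.0197), from -2.05 in version 3 to 0.45 in version 3.1, beside 61 of all 8732 genes tested. In all other cells 6 members differed: Igfbp2 by -3.18, Igfbp7 by -0.97, Igf2 by -1.72, Igf1 by -2.15, Igfbp4 by -1.74 and Igf2r by -1.05, beside 4005 of all 16962 genes tested there. In haematopoietic-like cells Igfbp7 differed by -1.87, Igf1 by -2.73 and Igfbp4 by -1.56, beside 457 of 11876 genes. In endothelial-like cells Igfbp5 differed by -1.89, beside 138 of 11540 genes. In mural-like cells Igf1 differed by 1.68 and Igfbp3 by -4.31, beside 25 of 9345 genes. In chondrocyte-like cells Igfbp5 differed by -2.54 and Igfbp3 by -2.41, beside 31 of 15372 genes. Kit version went with the software version and with the makeup of the suspensions, so these cannot be told apart.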

How the results depend on the processing

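In mOBs the Het against WT count of 0 members became 1 with DESeq2, 1 with stage limits of 0.5% and 5%, 5 with no low-count filter, and 0 to 2 when each library was left out. With no low-count filter 5 members were called in dOBs, 3 in eOBs, 1 for genotype by stage and 16 class tests against 7. The count of all genes called without the filter is given below for mOBs alone, so these other member counts have no background share and are not read as results. In all other cells DESeq2 called 3 members. The 7 class tests became 4 without kit version in the model and ran from 1 to 8 when each library was left out, the lowest without Het S3 or Het S4, where the erythroid-like comparison had 1 Het library. From eOBs to mOBs 3 members were called after thinning to 2000 UMIs (Igf1 -3.36, Igfbp4 -1.55 and Igfbp7 -2.10), when Igfbp3 and Igfbp6 were too low to be tested, and against other cells 2 with the looser OB selection. Over all genes, edgeR called 52 in mOBs and DESeq2 134, or 536 with no low-count filter, 25 after thinning and 0 without kit version. In all other cells DESeq2 called 1997 against 0, and after thinning 850 genes were called between mOBs and eOBs against 3262, and 832 between mOBs and dOBs against 3451.

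Signs turned in 41 of the values examined, none of them called in the fit over both kit versions. Igf1 in Het turned to 0.20 in mOBs and 0.27 in dOBs with the looser selection and to 0.59 in eOBs with the stricter one. Igfbp4 in Het mOBs turned to -0.25 after thinning and -0.059 without Het S3 (-0.059 to 0.33 over the libraries left out). From eOBs to mOBs Igf2r turned to -0.081 after thinning, and Igfbp5 to 0.56 with the looser selection and to 0.013 without WT S1 (-0.54 to 0.013 over the libraries left out). The other 33 were Het changes within 1 kit version. Within version 3.1 these were Igfbp2 (-0.077), Igfbp3 (-1.19) and Igfbp4 (-0.28) in mOBs, Igfbp2 (-0.12) and Igf2r (-0.0028) in dOBs, and Igf2 (-0.88) and Igf1 (0.45) in eOBs. Over all other cells they were Igfbp2 (-0.48), Igfbp5 (-1.19), Igf1 (-0.97), Igfbp3 (-0.43) and Igfbp4 (-0.61), and in haematopoietic-like cells Igfbp5 (-1.44), Igfbp7 (-0.59), Igf2 (-0.36), Igf1 (-0.53) and Igfbp3 (-1.15). In the other classes they were Igf2 (-0.74) in endothelial-like, Igf1 (0.39), Igfbp3 (-1.64) and Igf2r (-0.014) in mural-like, and Igfbp5 (-0.95), Igfbp3 (-0.61) and Igfbp6 (-0.010) in chondrocyte-like cells. Within version 3 they were Igf2 (0.030) and Igfbp3 (0.14) in dOBs, Igfbp3 (0.073) in eOBs, Igfbp5 (0.34), Igfbp3 (0.38) and Igf2r (-0.079) in endothelial-like, Igf1r (-0.00061) in mural-like, and Igf2 (-0.0019) and Igf1 (0.88) in chondrocyte-like cells. The cause was not tested. With a replicate block in place of kit version 0 members were called in Het mOBs, and Igfbp7 in endothelial-like cells lost its call (0.51, edgeR adjusted p = 0.0707) while Igf1 kept it (-0.99, edgeR adjusted p = 0.0101). The block also ended the calls of Socs3 in endothelial-like cells (-0.63, edgeR adjusted p = 0.0638) and Pappa2 in fibroblast-like cells (2.04, edgeR adjusted p = 0.224), and Igfbp2 in fibroblast-like cells passed with it (2.56, edgeR adjusted p = 0.00416).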
